A study of Mus musculus with 686 samples.

Results

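The miRNAs miR-192-5p, miR-194-5p and miR-215-5p were selected by name and are 3 of the 1964 miRNAs in the miRNA count table. The table covers 686 small RNA libraries from 13 tissues of female BALB/cAnNTac mice, an inbred strain, in 3 arms. FL mice were flown to the International Space Station, habitat ground controls (HGC) were kept on Earth in matched hardware, and vivarium ground controls (VGC) in standard cages. Live animal return (LAR, 348 libraries) followed 39.5 days on the station with tissues taken 2 to 4 days after splashdown, and TERM (338 libraries) holds mice killed 22 to 24 days after launch, with ground controls on matching schedules. Mice were 3 months (358 libraries) or 8 months old (328 libraries). Most TERM tissues came from carcasses that had been frozen whole and thawed before dissection, so time aboard, return to Earth and freezing cannot be told apart between LAR and TERM. Each level below is in counts per 1 M miRNA counts of a library (CPM), and each difference is a log2 fold change from edgeR with its standard error (SE) and a Benjamini-Hochberg adjusted p over all miRNAs of the fit. A miRNA was called at an adjusted p under 0.05.

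miRNAs are short RNAs that pair with messenger RNAs mainly through the seed, bases 2 to 8 from the 5′ end, and lower the output of their targets. miR-192, miR-194 and miR-215 come from a pair of clusters, each of which joins a miR-194 gene to a gene of the miR-192/215 family. They are known from liver, kidney and gut epithelium, where hepatocyte nuclear factors (HNFs) activate their genes, and from p53-dependent control of the cell cycle.

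The mature sequences are shown because they set what the counts can separate. Capitals mark the seed.
mmu-miR-192-5p: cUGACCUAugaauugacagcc
mmu-miR-215-5p: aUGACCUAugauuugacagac
mmu-miR-194-5p: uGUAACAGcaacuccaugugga
In RefSeq on GRCm38.p6, miR-192-5p lies on the plus strand at chr19:6264857-6264877 and miR-215-5p at chr1:185313610-185313630. miR-194-5p has a copy in each cluster, at chr1:185313325-185313346 (Mir194-1) and chr19:6264658-6264679 (Mir194-2). miR-192-5p and miR-215-5p shared 18 of 21 bases, and the substitutions from miR-192-5p to miR-215-5p were C1A, A12U and C20A, counted from the 5′ end. Of 1679 mature mouse miRNAs, these 2 alone held the seed UGACCUA, while miR-194-5p alone held GUAACAG. The hairpins of Mir194-2 and Mir192 were 115 bases apart and overlapped no other annotated gene. Those of Mir194-1 and Mir215 were 195 bases apart, inside the span of Iars2 but on the opposite strand and outside its exons, and within the antisense gene 2010103J01Rik, of which an exon overlaps Mir215.

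The mature miR-194-5p reads do not show which copy they came from, but the opposite strands of the hairpins do, and these are given for that reason.
mmu-miR-194-1-3p: cCAGUGGAgcugcuguuacuuc
mmu-miR-194-2-3p: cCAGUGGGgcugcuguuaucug
From miR-194-1-3p (chr1:185313360-185313381) to miR-194-2-3p (chr19:6264694-6264715) the substitutions were A8G, C19U, U20C and C22G, and A8G falls in the seed.

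Many libraries stood apart from their tissue label. Each library was compared with the median profile of every tissue over 724 tissue-enriched miRNAs, with the 3 miRNAs and their opposite strands left out, and 165 of 686 (24.1%) were closest to another tissue than the one labelled. Their median correlation with the labelled tissue was 0.128, against 0.893 for the remaining libraries. Pools in which more than 1 in 3 libraries were closest to another tissue were set apart, 11 of the 44 library pools with 168 libraries. They held 118 of the 165, a concentration that follows in part from this choice. The share was largest in mesenteric adipose tissue (MAT, 46 of 57 libraries), of which 20 were closest to pancreas and 13 to spleen, and brain had none (0 of 25). Libraries held between 0.181 M and 30.5 M miRNA counts (median 3.88 M), so that 1 CPM is about 3.88 counts at the median depth. Whether these libraries were labelled, pooled or dissected as another tissue was not tested, so a level or fold change over all libraries describes the labels. Levels and tests between groups are therefore given also, or in place of that, over the libraries closest to their own label ("own-profile"). MAT groups were too small for this and are given outside the 11 pools, although 34 of those 44 MAT libraries were still closest to another tissue. Own-profile means only that no other tissue was closer, and such a library can still hold high levels of another tissue's miRNAs. Brown adipose library LAR VGC replicate 4 was own-profile with 38049 CPM of miR-122-5p, a liver miRNA, and 5323 CPM of miR-192-5p.

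miR-192-5p was by far most abundant in liver, next in kidney, and at the median lower by about an order of magnitude or more elsewhere. In 51 own-profile liver libraries it ranged from 29715 to 126593 CPM with a median of 78131 CPM. In 47 own-profile kidney libraries it ranged from 13085 to 67414 CPM with a median of 30348 CPM. The middle ranges (quartiles) of liver and kidney did not overlap, although their extremes did. Pancreas followed at a median of 2789 CPM (1834 to 13024 CPM, 35 libraries) and MAT at 1549 CPM (472 to 14017 CPM, 11 libraries), with overlapping quartiles. The other 9 tissues had medians from 710 CPM in spleen down to 295 CPM in brain, and each neighbour in that order overlapped the next. Over all libraries the medians were 74631 CPM in liver, 26681 CPM in kidney, 2457 CPM in pancreas and 1351 CPM in MAT, in the same order. miR-122-5p, the most abundant miRNA of hepatocytes, was present at a median of 73.4 CPM (13.5 to 28252 CPM) in the 25 brain libraries, and its part in the low levels of miR-192-5p outside liver and kidney was not tested. In bulk tissue, fewer cells of a type and less RNA per cell cannot be told apart.

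**Figure D1:**
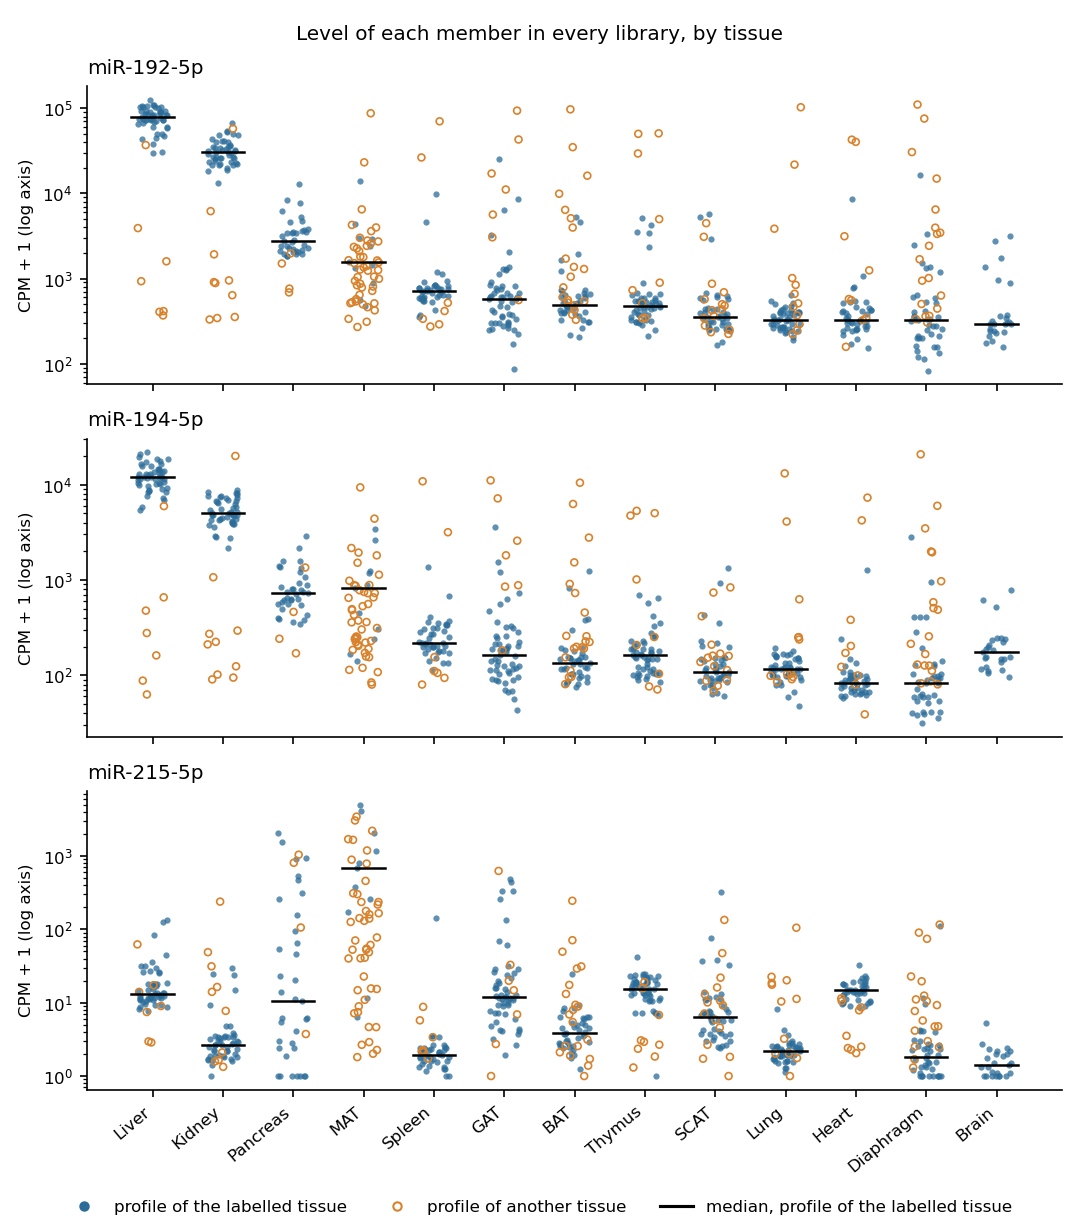
Levels of the 3 miRNAs in each library by labelled tissue, in CPM + 1 on a log axis. Filled blue points are own-profile libraries, open orange points are libraries closest to another tissue, and lines are own-profile medians. miR-192-5p and miR-194-5p are highest in liver (medians 78131 and 12004 CPM) and kidney (30348 and 5040 CPM), while miR-215-5p has its highest median in MAT (690 CPM).

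miR-194-5p had nearly the same order at a lower level. Its own-profile median was 12004 CPM in liver (5351 to 21876 CPM) and 5040 CPM in kidney (2166 to 8710 CPM), with separate quartiles. MAT (818 CPM) and pancreas (729 CPM) came next and overlapped each other, and the remaining medians ran from 216 CPM in spleen to 81.9 CPM in heart. Across the 13 own-profile tissue medians, log2 levels of miR-192-5p and miR-194-5p had a Pearson's r of 0.98, against 0.16 for miR-192-5p and miR-215-5p and 0.24 for miR-194-5p and miR-215-5p. These values describe 13 medians that share libraries and scaling. The median ratio of miR-192-5p to miR-194-5p was 6.42 in liver, 5.80 in kidney, 3.20 in MAT and 1.99 in brain.

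miR-215-5p, though it has the seed of miR-192-5p, had a different distribution. Its highest own-profile median was in MAT, at 690 CPM (5.32 to 5000 CPM, 11 libraries), and with LAR and TERM pooled the upper quartile of no other tissue reached the lower quartile of MAT (214 CPM). These MAT libraries also held markers of other cells. The epithelial miR-200c-3p was 1239 to 12448 CPM in 3 LAR libraries at 8 months and 988 to 2874 CPM in 5 TERM libraries at 3 months. The pancreatic acinar miR-217-5p was 22.6 to 3342 CPM and 23.2 to 1595.5 CPM there. Their part in the MAT level of miR-215-5p was not tested. Thymus (14.6 CPM), heart (13.7 CPM), liver (12.0 CPM, 6.61 to 133 CPM) and gonadal adipose tissue (GAT, 10.9 CPM) followed with overlapping quartiles, and kidney was at 1.66 CPM (0 to 28.9 CPM). Pancreas had a pooled median of 9.57 CPM that describes neither LAR nor TERM, with 3.05 CPM (0 to 528 CPM) in 25 LAR libraries and 393 CPM (22.3 to 2034 CPM) in 10 TERM libraries. Over all libraries the MAT median was 130 CPM, with liver at 11.9 CPM and kidney at 1.74 CPM. As a share of miR-192-5p and miR-215-5p together, miR-215-5p made up a median of 25.2% in MAT, 3.57% in heart, 3.04% in thymus, 0.0162% in liver and 0.00508% in kidney. It exceeded miR-192-5p in 1 of the 11 own-profile MAT libraries and in 3 of all 57. Because the table holds fractional counts, a read that fits both miRNAs could have been divided between them.

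The opposite strands of miR-194 differed in the same direction. In own-profile liver, miR-194-2-3p from the chromosome 19 cluster summed to 7357 counts and miR-194-1-3p from the chromosome 1 cluster to 13 counts, or 0.176% of both. In kidney the counts were 3507 and 2, a chromosome 1 share of 0.0570%. In MAT they were 128 and 363, a share of 73.9%, and in pancreas 68 and 62, a share of 47.7%. Per library, miR-194-1-3p was above miR-194-2-3p in 0 of 51 liver, 0 of 47 kidney and 8 of 11 MAT libraries. In pancreas it was higher in 5 libraries and miR-194-2-3p in 18, so that the pooled share there rests on a few libraries. miR-194-1-3p was at 0 in 41 of 51 liver and 45 of 47 kidney libraries, where a count of 0 allows up to 3 counts. miR-194-2-3p had a median of 31.7 CPM in liver and 12.6 CPM in kidney against 0.619 CPM in MAT. miR-215-3p, the opposite strand of miR-215, had a median of 30.8 CPM in MAT (0.205 to 243 CPM) and 0.354 CPM in liver. Over all MAT libraries, the chromosome 1 share was 56.9%, from 527 of miR-194-1-3p against 399 of miR-194-2-3p, but miR-194-1-3p was higher in 23 libraries and miR-194-2-3p in 24. The strand counts lay with the chromosome 19 cluster in liver and kidney, and with the chromosome 1 cluster in own-profile MAT.

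**Figure D2:**
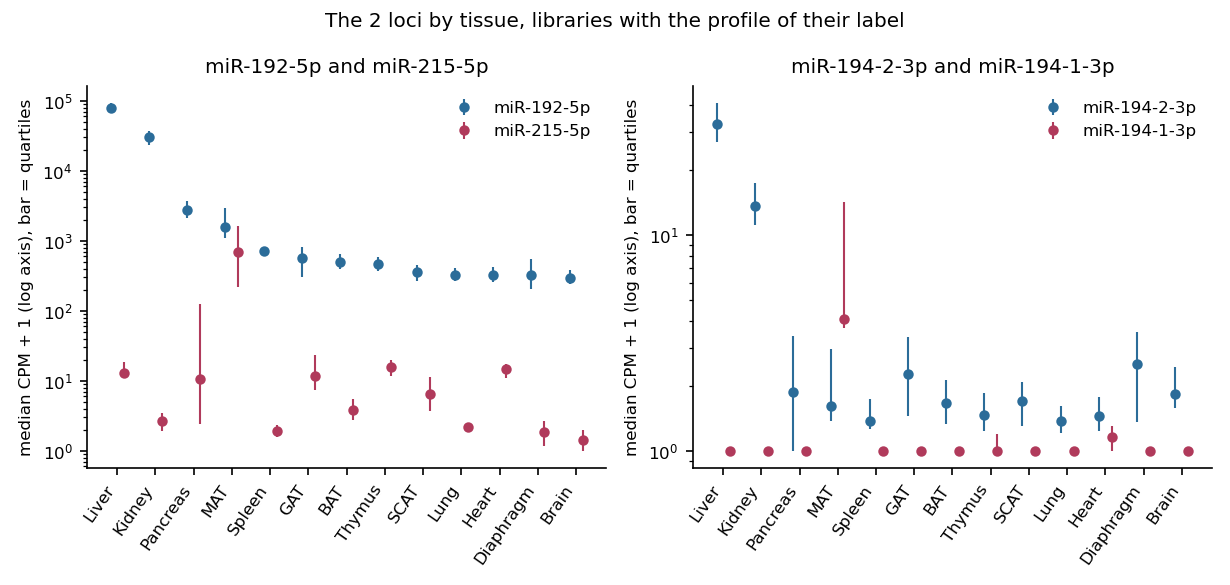
Median own-profile levels by tissue in CPM + 1 on a log axis, with bars from the lower to the upper quartile. The left panel sets miR-192-5p beside miR-215-5p, which share a seed, and the right panel sets miR-194-2-3p (chromosome 19) beside miR-194-1-3p (chromosome 1). In liver miR-194-2-3p is at 31.7 CPM and miR-194-1-3p at 0, while in MAT they are at 0.619 and 3.07 CPM.

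The question whether the 3 miRNAs keep one ratio between liver and kidney was addressed in mice with both tissues. Over all 56 mice, the log2 ratio of miR-192-5p to miR-215-5p was 0.49 lower in liver (liver minus kidney -0.49, SD of the differences 3.69, adjusted p = 0.331, sign-flip permutation test). In the 40 mice with own-profile libraries of both, the difference was -1.08 (SD 1.51, same direction in 35 of 40 mice, adjusted p = 9e-05). The ratio of miR-194-5p to miR-215-5p behaved likewise at -1.20 (35 of 40 mice, adjusted p = 3e-05). The ratio of miR-192-5p to miR-194-5p differed by 0.12, with an adjusted permutation p of 0.290. Both differences with miR-215-5p turn to 0.70 and 0.58 when 10 CPM in place of 1 is added before taking logs over all 56 mice, where 1 CPM gave -0.49 and -0.60, with kidney miR-215-5p itself near 1 CPM.

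Within a tissue, miR-192-5p and miR-194-5p rose and fell together. In own-profile liver (51 libraries) Pearson's r was 0.47 (permutation p = 0.00042, adjusted over 6 relations 0.00126) and Spearman's rho 0.41 (p = 0.00313), with r at 0.48 without the 2 libraries farthest from the median. The value was 0.30 within LAR and 0.49 within TERM. In own-profile kidney (47 libraries) r was 0.52 (permutation p = 0.00023, adjusted 0.00126) and rho 0.45 (p = 0.00205), with 0.43 without the 2 farthest libraries, 0.39 within LAR and 0.62 within TERM. miR-215-5p did not pass with either partner, with r from -0.14 to 0.16 in liver and from -0.11 to -0.071 in kidney.

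In MAT the relations were taken outside the 11 pools and within libraries of 1 closest tissue, since MAT libraries fall apart by profile. These 9 relations were chosen after the data were seen. In the 15 LAR libraries closest to pancreas, r was 0.89 for miR-192-5p and miR-194-5p (rho 0.89 with p = 3e-05, 0.83 without the 2 farthest libraries, permutation p = 1e-05, the smallest possible, adjusted 9e-05). There it was 0.70 for miR-192-5p and miR-215-5p (rho 0.60 with p = 0.0208, permutation p = 0.00275, adjusted 0.00619) and 0.60 for miR-194-5p and miR-215-5p (rho 0.44 with p = 0.105, permutation p = 0.0191, adjusted 0.0215). Without the 2 farthest libraries these fell to 0.45 and 0.20, so both rest in part on those libraries. In the 11 TERM libraries closest to spleen the 3 values were 0.80 (rho 0.71 with p = 0.0177, 0.62 without 2, permutation p = 0.0086), 0.61 (rho 0.71 with p = 0.0185, 0.45 without 2, permutation p = 0.0369) and 0.92 (rho 0.86 with p = 0.0011, 0.85 without 2, permutation p = 0.0002). In the 6 own-profile TERM libraries they were 0.91 (rho 0.89 with p = 0.0333, 0.81 without 2, exact permutation p = 0.0111), 0.92 (rho 0.89 with p = 0.0333, 0.91 without 2, exact p = 0.0111) and 0.99 (rho 1 with p = 0.00278, 0.96 without 2, exact p = 0.00139). All 9 had an adjusted p under 0.05 for r, with the largest at 0.0369. Summed levels of the 3 acinar markers ranged from 11.9 to 36489 CPM in the 23 LAR libraries outside the pools, and those of the 3 lymphoid markers from 2213 to 89329 CPM. These 23 include, but are not limited to, the 15 closest to pancreas, and sums for TERM are given by age below. The part of these markers in the relations was not tested.

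The miRNAs with the most similar order of tissues were sought next. Of 597 candidates, those with the highest r across the 13 tissue medians of all libraries were miR-12182-3p (0.92), miR-3105-5p (0.86) and miR-101a-5p (0.82) for miR-192-5p. For miR-194-5p they were miR-12182-3p (0.91), miR-3105-5p (0.87) and miR-101b-3p (0.83). For miR-215-5p the nearest were miR-6239 at 0.62, miR-3473b at 0.56 and miR-3473e at 0.56. Over own-profile medians (607 candidates) the same names led for miR-192-5p and miR-194-5p, with r from 0.81 to 0.91, while miR-3473b (0.68), miR-3473e (0.64) and miR-145a-3p (0.59) led for miR-215-5p.

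The flight question was asked first in liver and kidney, where miR-192-5p and miR-194-5p are abundant. Liver miR-192-5p in LAR ranged from 43616 to 126593 CPM (median 86526) in 8 own-profile FL libraries, from 69163 to 103694 CPM (median 87953) in 8 HGC and from 59368 to 108828 CPM (median 84488) in 8 VGC. The arms overlapped almost wholly, and FL vs. HGC gave a log2 fold change of -0.052 (SE 0.158, adjusted p = 0.969, edgeR). Liver miR-194-5p had medians of 14281 CPM in FL and 11252 CPM in HGC, with a log2 fold change of 0.16 (SE 0.197, adjusted p = 0.834). Liver miR-215-5p had medians of 11.5 and 10.2 CPM, with 0.20 (SE 0.210, adjusted p = 0.798). In TERM the log2 fold changes of FL vs. HGC were 0.061 (SE 0.166), -0.20 (SE 0.197) and -0.26 (SE 0.558) for the 3 miRNAs in order. No member was called in liver by these fits. In own-profile LAR 0.244% of 818 miRNAs were called and over all LAR libraries 6.11% of 884, against 0 of 796 in own-profile TERM (73 with an unadjusted p under 0.05) and 0.345% over all TERM libraries.

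Kidney miR-192-5p in LAR ranged from 19728 to 54505 CPM (median 36159) in 9 own-profile FL libraries and from 18181 to 32962 CPM (median 22959) in 9 HGC libraries. FL was higher at the median but overlapped HGC, and the log2 fold change of 0.42 (SE 0.173, unadjusted p = 0.0226) had an adjusted p of 0.329 (edgeR). In TERM the same comparison was -0.0063 (SE 0.250), from medians of 31233 CPM in FL and 26145 CPM in HGC. Kidney miR-194-5p differed by -0.0062 (SE 0.203) in LAR, from medians of 4818 and 4545 CPM. FL vs. HGC in LAR kidney called 0 of 987 miRNAs by edgeR (83 with an unadjusted p under 0.05) and 0 by DESeq2, and 0 of 925 over own-profile libraries (102 unadjusted). Kidney miR-215-5p was near 1 CPM in each LAR arm, with medians of 1.48 CPM in FL, 1.02 CPM in HGC and 1.60 CPM in VGC. Between the ground arms, miR-215-5p in LAR kidney was called only outside the 11 pools (HGC vs. VGC log2 fold change -2.45, SE 0.563, adjusted p = 0.0134, with 1.71% of miRNAs called). It was not called over own-profile libraries (-1.57, SE 0.546, adjusted p = 0.176, beside 0.541%) or over all libraries (-2.23, adjusted p = 0.122, beside 1.11%).

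Brown adipose tissue (BAT) of LAR gave the largest flight difference in miR-192-5p among FL vs. HGC in LAR. miR-192-5p was 324 to 97165 CPM (median 720) in 10 FL libraries, 263 to 725 CPM (median 535) in 10 HGC and 451 to 6402 CPM (median 962) in 10 VGC. miR-194-5p was 80.2 to 10468 CPM (median 218) in FL, 80.5 to 193 CPM (median 120) in HGC and 83.6 to 908 CPM (median 174) in VGC. The groups overlapped, with HGC lowest at each median, and 2 FL libraries of 8-month-old mice lay far above the rest. FL replicate 12 held 97165 CPM of miR-192-5p and FL replicate 11 held 9909 CPM, while the other 8 ranged from 324 to 1654 CPM.

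**Figure D3:**
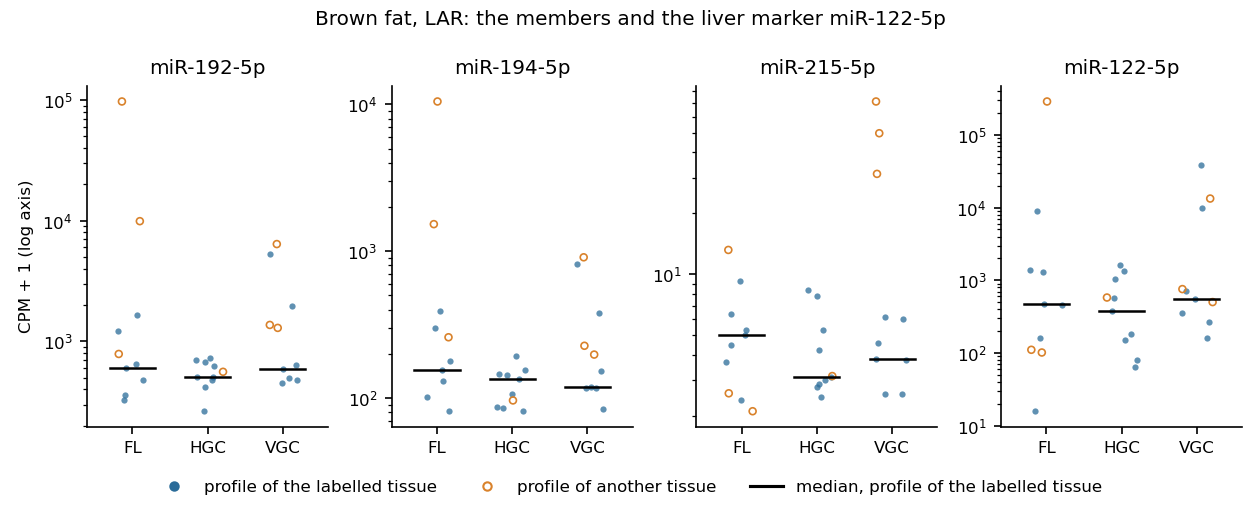
Levels in each BAT library of LAR by arm, in CPM + 1 on a log axis, for the 3 miRNAs and for miR-122-5p, a hepatocyte miRNA. Filled and open points are own-profile libraries and libraries closest to another tissue. FL replicate 12 stands at the top for miR-192-5p (97165 CPM), miR-194-5p (10468 CPM) and miR-122-5p (287175 CPM), but not for miR-215-5p (12.2 CPM) relative to VGC, whose highest is 70.2 CPM.

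In edgeR, FL vs. HGC in BAT of LAR gave a log2 fold change of 4.67 for miR-192-5p (SE 1.00, adjusted p = 0.0177) and 3.69 for miR-194-5p (SE 0.818, adjusted p = 0.0177), so 2 of the 3 miRNAs were called beside 6.92% of 982 miRNAs, of which 24 were higher and the rest lower. miR-215-5p gave 0.44 (SE 0.635, adjusted p = 0.754), from medians of 3.74 CPM in FL and 2.13 CPM in HGC. miR-192-3p (4.52, SE 1.02, adjusted p = 0.0177) and miR-122-5p (5.90, SE 1.58, adjusted p = 0.0331) were called with them. The whole profile of FL replicate 12 was closest to liver (r = 0.945), and that of FL replicate 11 to kidney (r = 0.344, against 0.314 with BAT). The single liver marker, miR-122-5p, ranged from 14.9 to 287175 CPM in FL and from 62.9 to 1634 CPM in HGC. The 3 kidney markers, none at 0 in every library, summed to 278 to 4992 CPM in FL and 638 to 1852 CPM in HGC, and the 2 brown fat markers to 213 to 20204 CPM and 5648 to 24848 CPM. Of the kidney markers, miR-10a-5p was highest in FL replicate 16 (4488 CPM), whose profile was closest to BAT. In FL replicate 11 it was 1679 CPM, and in HGC it reached 1787 CPM. Without FL replicate 12 the log2 fold changes were 1.53 for miR-192-5p and 1.29 for miR-194-5p, both with an adjusted p of 0.0894. Over the 23 own-profile libraries they were 0.41 (adjusted p = 0.906) and 0.50 (adjusted p = 0.850), beside 0.545% called. Neither miRNA was called in FL vs. VGC, with 3.12 and 2.61 (adjusted p = 0.411 for each), where edgeR called 0 of 982 miRNAs (45 with an unadjusted p under 0.05) and DESeq2 0. In BAT of TERM, miR-192-5p had medians of 502 CPM in FL, 423 CPM in HGC and 449 CPM in VGC, and no member was called beside 0 of 1015 miRNAs by edgeR (94 unadjusted) and 0 by DESeq2.

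Across all 39 tests of the 3 miRNAs in 13 tissues, FL vs. HGC in LAR called 3, all higher in FL, beside 1.54% of all miRNA tests. FL vs. HGC in TERM called 3, all lower in FL, beside 0.307%, and FL vs. VGC in TERM called 2 beside 0.712%. FL vs. VGC in LAR called 0 by edgeR (8 with an unadjusted p under 0.05, 3 called by DESeq2), beside 0.736%. HGC vs. VGC called 0 in LAR (13 unadjusted, 1 by DESeq2), beside 0.176%, and 0 in TERM (14 unadjusted, 1 by DESeq2), beside 0.251%. Over own-profile libraries the number called was 0 in each of these 6 contrasts, with 2 to 15 tests at an unadjusted p under 0.05, beside 0.00957% to 0.276% of all miRNA tests.

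The calls outside BAT were in lung and heart, and none was kept over own-profile libraries. Which library each call depended on was not tested. In lung of LAR, miR-215-5p was 0.290 to 21.6 CPM (median 1.48) in FL and 0.271 to 1.30 CPM (median 0.883) in HGC, a log2 fold change of 2.79 (SE 0.748, adjusted p = 0.0401, beside 1.97% called). The highest FL libraries, replicates 14 (21.6 CPM) and 5 (19.2 CPM), were closest to heart and pancreas, and over own-profile libraries the value was 0.49 (adjusted p = 0.646, beside 0 of 1011 called and 113 unadjusted). In lung of TERM, miR-192-5p was 221 to 436 CPM (median 328) in FL and 242 to 102785 CPM (median 389) in HGC, where the highest library (replicate 5) was closest to liver and held 360672 CPM of miR-122-5p. For miR-215-5p the highest HGC library was replicate 16 (104 CPM, closest to spleen), while FL reached 1.80 CPM. The log2 fold changes of FL vs. HGC were -5.97 for miR-192-5p (SE 1.37, adjusted p = 0.0231), -4.30 for miR-194-5p (SE 1.12, adjusted p = 0.0410) and -3.16 for miR-215-5p (SE 0.787, adjusted p = 0.0347), beside 3% called. Over own-profile libraries they were -0.094, 0.28 and -0.16, beside 0 of 949 called (106 unadjusted). In heart of TERM, FL vs. VGC gave 3.14 for miR-192-5p (SE 0.740, adjusted p = 0.0250) and 2.62 for miR-194-5p (SE 0.678, adjusted p = 0.0322), beside 2.34% called. There, FL replicate 14, closest to kidney, held 42786 CPM of miR-192-5p while the VGC libraries reached 555 CPM, and over own-profile libraries the values were 0.023 and -0.013, beside 0 of 916 called (29 unadjusted).

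**Figure D4:**
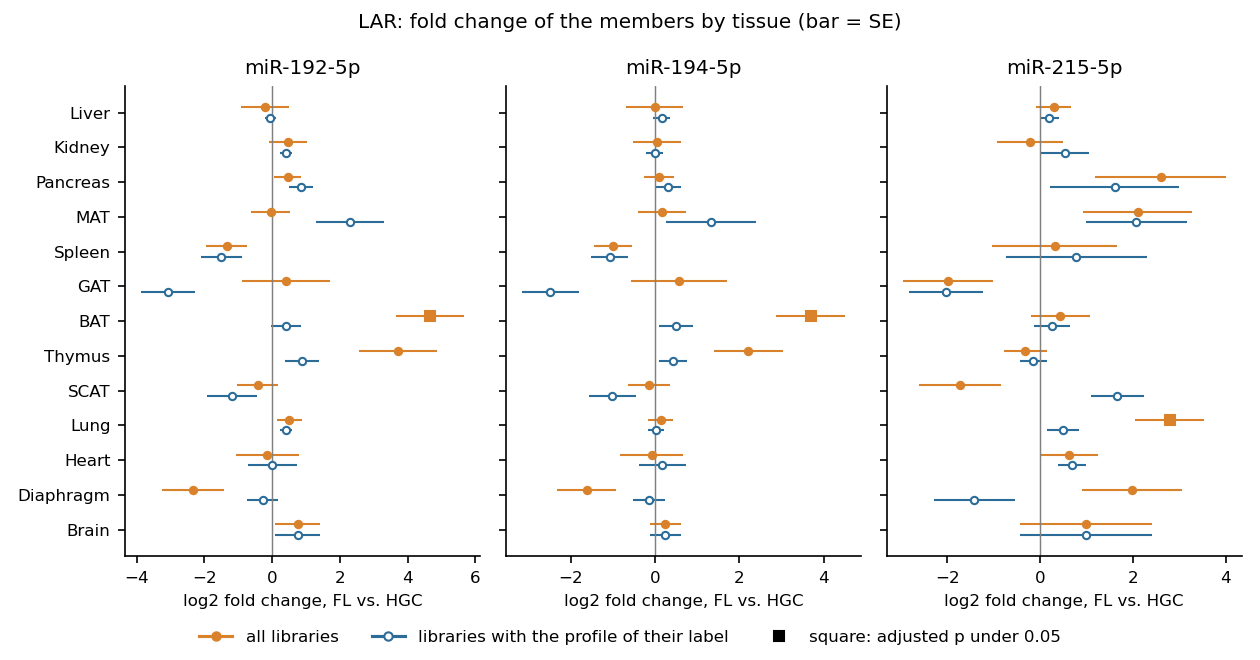
FL vs. HGC log2 fold changes in LAR with their SE, by tissue, for the 3 miRNAs. Orange points use all libraries, open blue points own-profile libraries, and squares mark an adjusted p under 0.05. The BAT values of 4.67 and 3.69 fall to 0.41 and 0.50 over own-profile libraries, and the lung value of 2.79 for miR-215-5p falls to 0.49.

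In MAT no flight contrast was called for the 3 miRNAs. Outside the 11 pools, miR-192-5p in LAR was 866 to 14017 CPM (median 2467) in 6 FL libraries, 1234 to 2410 CPM (median 1587) in 8 HGC and 554 to 6492 CPM (median 1783) in 9 VGC. miR-215-5p was 9.95 to 4119 CPM (median 218) in FL, 3.65 to 810 CPM (median 14.9) in HGC and 10.5 to 3059 CPM (median 177) in VGC. The spread within each arm was larger than the distance between medians. Over all 28 MAT libraries of LAR, FL vs. HGC gave -0.047 (SE 0.582), 0.17 (SE 0.577) and 2.10 (SE 1.18, adjusted p = 0.981) for miR-192-5p, miR-194-5p and miR-215-5p, with 0 of 883 miRNAs called by edgeR (51 unadjusted) and 0 by DESeq2. Outside the 11 pools the values were 1.30 (SE 0.527, unadjusted p = 0.0208), 1.12 (SE 0.573) and 2.39 (SE 1.27), each with an adjusted p of 1 (edgeR), with 0 of 825 miRNAs called (33 unadjusted). In TERM, miR-192-5p gave 0.27 (SE 1.02) in FL vs. HGC and -3.77 (SE 1.10, unadjusted p = 0.00171, adjusted p = 0.320) in FL vs. VGC, where VGC replicate 5, closest to liver, held 87392 CPM. Outside the 11 pools, which hold that library, the FL vs. VGC value in TERM was 1.43 in the opposite direction (SE 0.613, unadjusted p = 0.0276, adjusted p = 0.543), with 0 of 824 called (62 unadjusted). Over all libraries edgeR called 0 of 933 miRNAs in both TERM contrasts (69 and 82 unadjusted), and DESeq2 2 and 0.

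miR-192-5p and miR-194-5p fell with age in MAT of TERM, in libraries whose profile also differed with age. Outside the 11 pools, 5 of 8 libraries at 3 months were own-profile, against 1 of 13 at 8 months, of which 10 were closest to spleen. Over all 29, 5 of 15 and 1 of 14 were own-profile. Age and profile thus cannot be told apart here. Outside the 11 pools, miR-192-5p was 876 to 4360 CPM (median 2231) in 8 libraries at 3 months and 310 to 2416 CPM (median 537) in 13 libraries at 8 months. miR-194-5p was 242 to 2632 CPM (median 853) and 83.2 to 1133 CPM (median 219), and miR-215-5p was 142 to 5000 CPM (median 925) and 14.4 to 2211 CPM (median 60.4). The older mice were lower at each median, and the ranges overlapped. The log2 fold change of 8 vs. 3 months was -1.89 for miR-192-5p (SE 0.353, adjusted p = 0.00126) and -1.53 for miR-194-5p (SE 0.486, adjusted p = 0.0356), beside 13.8% of 824 miRNAs. Over all 29 libraries the values were -2.99 (SE 0.853, adjusted p = 0.0224) and -2.41 (SE 0.700, adjusted p = 0.0243), beside 12.8%. miR-215-5p was not called by either fit. In LAR no member was called with age in MAT (0 of 883 miRNAs by edgeR, 39 unadjusted, and 0 by DESeq2), where miR-192-5p had medians of 1783 CPM at 3 months and 1819 CPM at 8 months, and whether the age differences of LAR and TERM differ was not tested.

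Markers of other cells moved with age in the same TERM libraries. The 5 epithelial markers (the miR-200 family, which maintains epithelial identity) summed to 1330 to 26779 CPM at 3 months and 397 to 2139 CPM at 8 months, and the 3 acinar markers to 34.8 to 15931 CPM and 14.8 to 336 CPM. The liver marker miR-122-5p ran from 1352 to 5147 CPM and from 119 to 4680 CPM. The 3 lymphoid markers went the other way, from 3199 to 134753 CPM (median 35287) at 3 months and from 11494 to 187463 CPM (median 121954) at 8 months. No marker of these lists was at 0 in every library, and their part in the age difference was not tested.

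**Figure D5:**
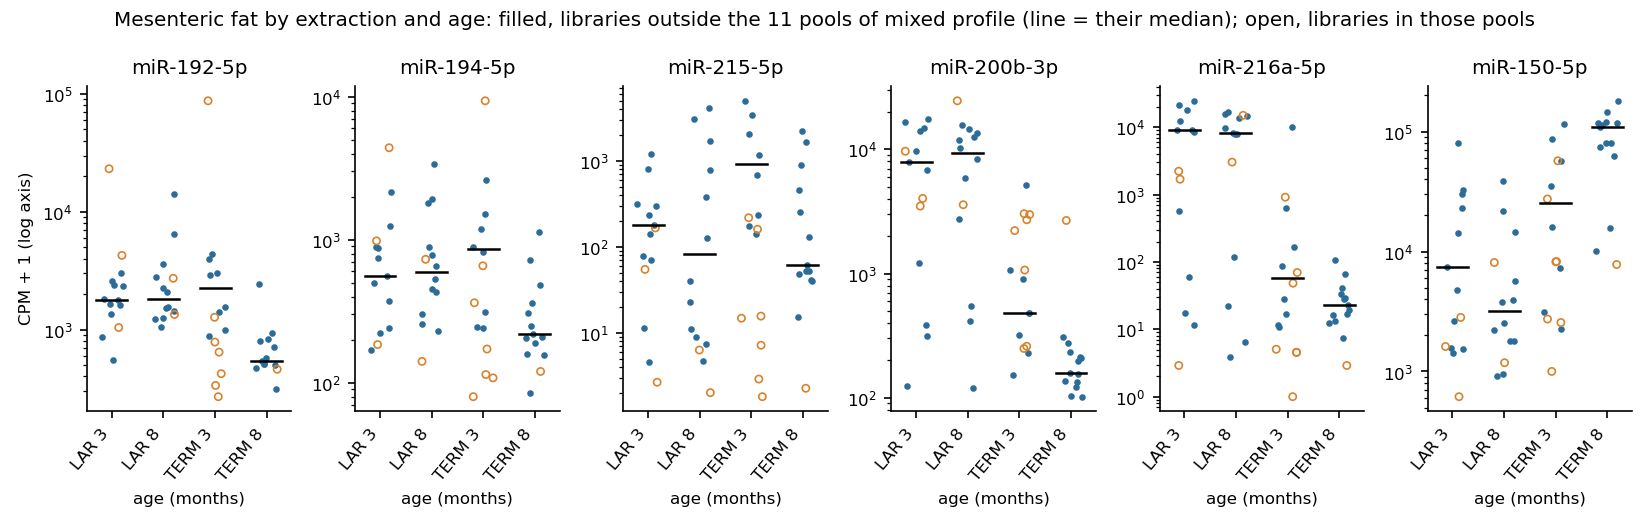
Levels in MAT libraries by extraction and age, in CPM + 1 on a log axis, for the 3 miRNAs and for miR-200b-3p (epithelium), miR-216a-5p (pancreatic acinar cells) and miR-150-5p (lymphocytes). Filled points lie outside the 11 pools and open points in them, and lines are medians of the filled points. In TERM the medians of miR-192-5p (2231 and 537 CPM) and miR-215-5p (925 and 60.4 CPM) are lower at 8 months.

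Thymus of LAR was the other tissue with an age difference. In own-profile libraries miR-192-5p was 249 to 4297 CPM (median 586) in 11 mice of 3 months and 212 to 594 CPM (median 374) in 14 mice of 8 months. miR-194-5p was 93.9 to 570 CPM (median 169) and 89.5 to 210 CPM (median 146), and miR-215-5p was 10.2 to 41.3 CPM (median 18.2) and 6.34 to 19.9 CPM (median 12.6). All 3 were lower in older thymus at overlapping ranges. The log2 fold changes were -1.36 (SE 0.350, adjusted p = 0.0144), -0.72 (SE 0.242, adjusted p = 0.0440) and -0.68 (SE 0.206, adjusted p = 0.0282), beside 14.8% of 942 miRNAs called. Over all libraries they were -3.83 (adjusted p = 0.0450), -2.52 (adjusted p = 0.0450) and -0.49 (adjusted p = 0.514), beside 0.604%. None of the 3 was called over all libraries when each library was scaled by its total over 6 RNA classes, which moved the median of all thymus miRNAs by 0.121. miR-215-3p (-1.03, adjusted p = 0.0402) and miR-802-5p, an HNF-linked miRNA of liver and pancreas (-2.35, adjusted p = 0.0144), were called in the same own-profile fit. Beside them, miR-122-5p ranged from 14.3 to 10545 CPM (median 91.1) at 3 months and 26.6 to 835 CPM (median 177) at 8 months, and the 3 striated muscle markers had median sums of 5370 and 11222 CPM. Their part in the difference was not tested.

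LAR and TERM differed in liver miR-215-5p. It was 6.61 to 17.0 CPM (median 10.6) in 24 own-profile LAR libraries and 7.88 to 133 CPM (median 17.1) in 27 TERM libraries. TERM was higher at the median and the ranges overlapped. The log2 fold change of LAR vs. TERM was -1.36 (SE 0.273, adjusted p = 0.000513), beside 6.07% of 873 miRNAs, and -1.42 (SE 0.282, adjusted p = 0.000659) over all libraries, beside 2.52%. miR-215-3p was called in the same direction, with medians of 0.162 and 0.636 CPM. Liver miR-192-5p went the other way over own-profile libraries, with medians of 86058 CPM in LAR and 73658 CPM in TERM and a log2 fold change of 0.39 (SE 0.0955, adjusted p = 0.00723). With each library scaled by its total over 6 RNA classes, which moved the median of all liver miRNAs by 0.750 on the log2 scale, the miR-215-5p value was -0.50 (adjusted p = 0.104). Beside these, the epithelial markers summed to 602 to 1291 CPM in LAR and 514 to 1755 CPM in TERM, and 4 of the 5 (miR-141-3p, miR-200b-3p, miR-200c-3p and miR-429-3p) were called lower in LAR, by values from -0.67 to -0.49. The part of these cells was not tested.

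In diaphragm all 3 miRNAs were lower in LAR than in TERM. Over own-profile libraries miR-192-5p was 81.4 to 1177 CPM (median 210) in 21 LAR and 201 to 16517 CPM (median 355) in 19 TERM libraries. miR-194-5p was 30.3 to 192 CPM (median 59.9) and 50.1 to 2806 CPM (median 87.9), and miR-215-5p was 0 to 3.12 CPM (median 0.403) and 0 to 111 CPM (median 1.31). The ranges overlapped and the spread was wider in TERM. The log2 fold changes were -1.90 (SE 0.409, adjusted p = 0.0107), -1.73 (SE 0.386, adjusted p = 0.0123) and -2.38 (SE 0.605, adjusted p = 0.0282), beside 1.54% of 973 miRNAs called. Over all libraries miR-192-5p (-2.64) and miR-194-5p (-2.45) were called and miR-215-5p (-1.51, adjusted p = 0.141) was not, beside 5.57%. The liver lies against the diaphragm, and its marker miR-122-5p moved with them, at 31.3 to 6982 CPM (median 246) in LAR and 463 to 180889 CPM (median 3217) in TERM, with its part not tested.

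Other differences between LAR and TERM changed with the libraries used. GAT miR-192-5p had a log2 fold change of 2.52 (SE 0.640, adjusted p = 0.0109, beside 4.36% called) although its medians were 363 CPM in LAR and 705 CPM in TERM, and the value was -0.50 over own-profile libraries, beside 7.02%. Lung gave -2.57 for miR-192-5p and -2.10 for miR-194-5p, beside 3.41%, and -0.048 and -0.090 over own-profile libraries, beside 1.42%. MAT miR-192-5p was not called over all libraries (0.041, adjusted p = 0.968, beside 37.5%) and was higher in LAR outside the 11 pools (1.00, adjusted p = 0.0105, beside 42.8%), with medians of 1783 and 831 CPM, where 15 of 23 LAR libraries were closest to pancreas and 11 of 21 TERM libraries to spleen. Over own-profile libraries MAT miR-192-5p was not called, and its direction was the opposite. In the 11 tissues fitted, 6 of 33 tests were called over all libraries and 5 over own-profile libraries, beside 6.65% and 6.15% of all miRNA tests. Brain and pancreas were left out of these fits and of the interaction for their small groups.

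In pancreas, where TERM holds mice of 3 months only, the 3 miRNAs are given at that age as levels without a test. Over own-profile libraries, miR-215-5p was 0 to 528 CPM (median 4.42) in 13 LAR and 22.3 to 2034 CPM (median 393) in 10 TERM libraries. miR-192-5p was 1841 to 5318 CPM (median 2256) and 2798 to 8435 CPM (median 3759), and miR-194-5p was 361 to 1372 CPM (median 715) and 548 to 2920 CPM (median 1264). TERM was higher at each median and the ranges overlapped. The acinar miR-216a-5p had medians of 13170 CPM in LAR and 25283 CPM in TERM, the epithelial miR-200b-3p 25137 and 14840 CPM, and miR-122-5p 519 and 3202 CPM, and their part in these levels was not tested.

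Whether FL vs. HGC itself differed between LAR and TERM was tested as an interaction, which called 5 of 33 over all libraries (beside 1.21%) and 1 over own-profile libraries (beside 0.352%). The 5 were in BAT (1.41% of miRNAs called) and lung (5.65%) and included the libraries described above. The own-profile call was miR-215-5p in subcutaneous adipose tissue (SCAT), at 4.77 (SE 1.05, adjusted p = 0.0161, beside 0.221% of 903 miRNAs). In LAR it was 4.87 to 36.5 CPM (median 9.91) in 5 FL and 1.56 to 10.3 CPM (median 2.82) in 8 HGC libraries, and in TERM 1.41 to 12.0 CPM (median 5.91) in 8 FL and 1.51 to 319 CPM (median 4.50) in 9 HGC libraries. Leaving out 1 own-profile FL or HGC library at a time kept the call in 28 of 30 edgeR fits, with values from 3.53 to 5.12. The call was lost without either of the following libraries. Without TERM HGC replicate 1 (319 CPM) the value was 3.53 (SE 0.912, adjusted p = 0.149), and without LAR FL replicate 14 (36.5 CPM) it was 4.04 (SE 1.08, adjusted p = 0.178), in edgeR fits added after the data were seen. Over all libraries the value was 0.76 (adjusted p = 0.936), where edgeR called 0 of 982 miRNAs (62 unadjusted) and DESeq2 0. Beside it in LAR, the 3 striated muscle markers summed to 14462 to 61117 CPM in FL and 86572 to 233199 CPM in HGC without overlap, and the 3 lymphoid markers to 7183 to 25373 CPM and 4172 to 9840 CPM, with their part not tested.

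The 8 HNF-linked and epithelial miRNAs (miR-122-5p, miR-802-5p, miR-148a-3p and the miR-200 family) were followed in the same fits. In FL vs. HGC of LAR 5 of 104 tests were called, all higher (1.54% of all miRNA tests), and over own-profile libraries 0 were by edgeR (23 with an unadjusted p under 0.05), against 0.154%. The 5 were miR-122-5p in BAT, miR-802-5p in lung, and miR-141-3p (3.58), miR-200b-3p (3.10) and miR-200c-3p (4.22) in liver. In TERM 3 of 104 were called, all lower (0.307%), and over own-profile libraries 0 of 96 by edgeR (11 unadjusted), against 0.00957%. With age over all libraries, 0 of 96 were called in LAR by edgeR (11 unadjusted, 0 by DESeq2), against 0.0785%, and 9 of 88 in TERM, against 1.46%, where all 8 fell in MAT, from -1.35 for miR-148a-3p to -4.71 for miR-802-5p. Over own-profile LAR libraries, miR-802-5p was called with age in thymus, as given above, beside 1.35% of all miRNA tests. Between LAR and TERM 13 of 88 were called (9 higher in LAR), against 6.65%, and 11 (3 higher) over own-profile libraries, against 6.15%. Of the opposite strands of the 3 miRNAs, 1 of 45 tests was called in FL vs. HGC of LAR (miR-192-3p in BAT, beside 1.54%), 2 of 42 in TERM (beside 0.307%), and 6 of 39 between LAR and TERM (beside 6.65%). Over own-profile libraries edgeR called 0 of 41 (6 unadjusted), 0 of 35 (11 unadjusted) and 3 of 36, beside 0.154%, 0.00957% and 6.15%.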

How the data were processed

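Small RNA of 686 mouse libraries was sequenced on a BGI instrument. The authors mapped reads to GRCm39 and miRBase with miRMaster and deposited one table per RNA class. The miRNA values the authors deposited are estimated counts (0.790% carry a fraction) without normalization, and those of tRNA, rRNA, snRNA, snoRNA and lncRNA are whole counts. Adapter and quality settings are not given in the sources used here.

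The 3 miRNAs, the marker lists and the tests were chosen with earlier results of these data known. To each level 1 CPM was added before log2. Counts were rounded, and a miRNA entered a fit when 10% or more of the libraries of some arm held 5 or more reads of it. The quasi-likelihood test of edgeR 4.0.16 (limma 3.58.1, R 4.3.3) was run with TMM factors on the 3 arms of each tissue within LAR or TERM, and was tested on simulated counts. Age was added as a term, and both extractions were fitted together for LAR vs. TERM. DESeq2 1.42.0, other scalings and filters, Wilcoxon tests and fits without other-profile libraries were alternatives. The named miRNAs are the 3 members, their opposite strands, 8 HNF-linked and epithelial miRNAs, and for each member the 3 nearest by Pearson's r over 13 tissue medians with a highest median of at least 10 CPM. Permutation tests used 100000 resamples and were 2-sided, with Python 3.11.15 and scipy 1.17.1. Mouse numbers recur across arms but mark different mice, so arms were not paired, and liver and kidney were paired by animal. Sequences came from RefSeq and gene annotation from GENCODE on GRCm38, and no coordinate was converted from GRCm39. Libraries were assigned to pools as the study lists them. A count of 0 allows up to 3 counts, and such limits cover counting error only. P-values measure the spread between mice, each with 1 library per tissue.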

Additional observations from a re-analysis of the deposited data

Results flagged for a closer look

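Each of the 3 miRNAs was tested in each group of 9 or 10 liver, kidney, MAT or BAT libraries, 72 tests in all. The 3 miRNAs share libraries, so these tests are not independent and 1 library can be flagged more than once. In 22 of the tests 1 library lay far from the others by Dixon's criterion, which chance gives in about 1 in 20 of single tests, and in 21 of these the library had a profile closest to another tissue. For the latter the closest tissue is given with each level.

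In liver, where miR-192-5p is otherwise above 29715 CPM in own-profile libraries, LAR HGC replicate 12 (closest to spleen) held 928 CPM of miR-192-5p and 276 CPM of miR-194-5p. LAR VGC replicate 12 (thymus) held 405 and 61.9 CPM, TERM HGC replicate 11 (heart) 367 and 86.9 CPM, and TERM VGC replicate 14 (thymus) 413 and 161 CPM. For miR-215-5p, LAR VGC replicate 14 (kidney) was low at 1.87 CPM. TERM FL replicate 2 was high at 123 CPM of miR-215-5p, and its profile was closest to liver.

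In kidney, LAR FL replicate 3 (closest to diaphragm) held 1922 CPM of miR-192-5p and 223 CPM of miR-194-5p, and TERM FL replicate 3 (SCAT) 342 and 101 CPM. LAR HGC replicate 1 (GAT) held 636 CPM of miR-192-5p and 123 CPM of miR-194-5p, with miR-215-5p at 13.1 CPM.

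In the adipose tissues, BAT TERM FL replicate 4 (closest to brain) held 16146 CPM of miR-192-5p and 2779 CPM of miR-194-5p. MAT LAR HGC replicate 13 (kidney) held 23153 CPM of miR-192-5p, and MAT TERM VGC replicate 5 (liver) 87392 CPM of miR-192-5p and 9352 CPM of miR-194-5p.

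The FL vs. HGC difference itself differed between LAR and TERM by an interaction test in edgeR for 5 results of 33, beside 1.21% of all miRNA tests, 1.41% in BAT and 5.65% in lung. In BAT the difference of log2 fold changes was 5.79 for miR-192-5p (SE 1.35, adjusted p = 0.0375) and 4.92 for miR-194-5p (SE 1.12, adjusted p = 0.0375). In lung it was 6.28 for miR-192-5p (SE 1.27, adjusted p = 0.000568), 4.23 for miR-194-5p (SE 1.06, adjusted p = 0.00959) and 5.86 for miR-215-5p (SE 1.10, adjusted p = 0.000193). None of the 5 was called over own-profile libraries.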

How the results depend on the processing

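Counts of called members in FL vs. HGC of LAR were 0 under DESeq2, without the 11 pools, over own-profile libraries, with an age term, with the replicate block and by the Wilcoxon test, beside 1.65%, 0.0873%, 0.154%, 0.724%, 0.384% and 0.208% of all miRNA tests. In TERM the same comparison called 1 under the 6-class total (0.534%) and 0 without the pools, over own-profile libraries, with age, with the block and by Wilcoxon (0% to 0.0179%). FL vs. VGC called 3 under DESeq2 in LAR (1.32%), and in TERM 0 under DESeq2 (0.567%), without the pools, over own-profile libraries, with age, with the block and by Wilcoxon (0% to 0.0287%). HGC vs. VGC called 1 in LAR under DESeq2 (0.755%) and without the pools (0.192%), and 1 in TERM under DESeq2 (0.518%) and the 6-class total (0.307%). For age, LAR called 1 under DESeq2 (0.659%) and 0 under the 6-class total (0.113%), and TERM called 1 under DESeq2 (4.64%) and total miRNA scaling (1.16%), 4 under the 6-class total (4.01%) and 0 over own-profile libraries (0.558%). The interaction called 1 under DESeq2 (1.72%), 3 under total miRNA scaling (0.876%), 2 under the 6-class total (1.14%) and without the pools (0.303%), and 1 over own-profile libraries (0.352%).

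In BAT of LAR, miR-192-5p and miR-194-5p were not called under DESeq2 (1.40 and 1.17, adjusted p = 0.0886 and 0.121), without the pools (0.29 and 0.27), over own-profile libraries (0.41 and 0.50), with age (3.87 and 3.03) or by Wilcoxon (0.42 and 0.84). With the replicate block they were 1.27 and 1.40 (adjusted p = 0.612 and 0.512). The mouse numbers did not pair the arms, since the median correlation of same-numbered deviations was 0.0327 over 653 pairs and no comparison of 78 had every pair over 0.1. Leaving out 1 library at a time gave 1.53 to 4.85 for miR-192-5p, 1.29 to 3.86 for miR-194-5p and 0.0204 to 0.628 for miR-215-5p. Of these 20 fits, miR-192-5p and miR-194-5p stayed called in 19 and miR-215-5p in 0.

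Directions reversed for heart TERM FL vs. VGC miR-194-5p (DESeq2 -0.065, own-profile -0.013), lung TERM FL vs. HGC miR-194-5p (DESeq2 0.23, without pools 0.25, own-profile 0.28, Wilcoxon 0.26), and the interaction without pools in BAT (miR-192-5p -2.15, miR-194-5p -1.43). They also reversed for the lung interaction of miR-194-5p (DESeq2 -0.16, without pools -0.13, own-profile -0.31), lung LAR vs. TERM miR-192-5p without pools (0.028), GAT (own-profile -0.50) and MAT miR-192-5p (filterByExpr -0.10, own-profile -0.032). The liver minus kidney ratios with miR-215-5p passed over own-profile libraries (-1.08 and -1.20) and outside the pools (-0.85 and -0.95). Over all 56 mice they were -0.49 and -0.60 and turned to 0.70 and 0.58 with 10 CPM added. The kidney correlation of miR-192-5p and miR-215-5p was 0.021 under the 6-class total.

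Total miRNA scaling moved the median of all miRNAs by over 0.1 on the log2 scale in 48 of 123 comparisons (-0.505 to 0.363), and the 6-class total in 94 (-0.572 to 1.14). The total over 7 classes was not run, and 6 were used, a choice made after the data were seen. DESeq2 gave no adjusted p for miR-192-5p with age in thymus LAR and MAT TERM, and an own-profile age fit of MAT TERM could not be made. At the median depth miR-215-5p in kidney rests on few counts. The cause of each change was not tested.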

Other observations

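Among the 571 libraries not labelled liver or kidney, 26 held more than 10000 CPM of miR-192-5p, and 22 of these had a profile closest to another tissue than their label, 18 of them to liver or kidney. Over libraries of every label, the 8 of another profile that were closest to liver, 1 of them labelled kidney, held 57690 to 110591 CPM of miR-192-5p (median 90602 CPM), and the 14 closest to kidney, 1 of them labelled liver, held 6465 to 50766 CPM (median 32740 CPM).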
